A study of Mus musculus with 2 samples.

Results

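The tetraspanins are a family of membrane proteins that cross the lipid bilayer repeatedly and carry a large extracellular loop with conserved cysteines. They gather integrins, immunoglobulin-like proteins, proteases and one another into membrane microdomains, and several of them are standard markers of exosomes, the vesicles that cells release from multivesicular endosomes. In liver they are known from hepatitis C virus entry, which uses CD81, and from the traffic of late endosomes and lysosomes, where CD63 resides. The family was taken as every non-control probe on the array whose gene name begins with Tspan and a digit, or is Cd9, Cd37, Cd53, Cd63, Cd81, Cd82 or Cd151. This gave 39 probes for 27 genes, among 39429 probes and 31894 gene names on the array. The choice used names alone and no measured value.

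Total RNA of mouse liver, strain C57BL/6, was labelled with Cy3 and hybridized to Agilent arrays of 1 colour. One array held wild-type liver, and the other held liver of genotype Alb-Cre;CAG-floxed neo-Snail. In that line the albumin promoter, a hepatocyte promoter, drives Cre recombinase, and CAG is a strong, widely active promoter. The title of the series names steatohepatitis and liver tumours, and the comparison asks how the livers of the different genotypes differ. The sources used here do not give age, sex, diet, the number of animals behind each RNA or whether the sampled tissue held tumour. With 1 array per genotype there was no replicate, so no difference below carries a test or a p-value, and all of them describe these particular libraries.

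Signals are the scanner software's processed intensities, which were not scaled between the arrays. Differences are log2 differences of signals divided by the 75th percentile of their array, 232.7 in wild-type and 302.1 in the Snail genotype, and a positive value means a higher level in the latter. Of the non-control spots, 50.7% were well above background in wild-type and 54.0% in the other library, by the scanner software's own background test. Probes printed several times gave a technical spread, the median SD of the log2 difference between spots, of 0.19 for signals under 100, 0.07 between 100 and 1000, and 0.04 above 1000. This spread contains noise between spots of the same pair of arrays only. It holds no variation between animals, labelling reactions or hybridizations. Hepatocyte markers were bright in both libraries, with Alb, the albumin gene, at signals of 226792 and 190813.

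Snai1, the gene that encodes Snail, had signals of 23.2 in wild-type and 22.3 in the Snail-labelled library, a log2 difference of -0.44. The position of its probe relative to the transgene is not given, so it does not check the label. The array of the Snail genotype is therefore named below as the Snail-labelled library.

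Of the 27 tetraspanin genes, 20 were well above background on both arrays and 4 on neither. A further 3 passed on the Snail-labelled array alone, and 0 on the wild-type array alone. Over all 31894 gene names the shares were 48.5% on both arrays, 45.7% on neither, 4.4% on the Snail-labelled array alone and 1.5% on the wild-type array alone. Cd63 was 29.2-fold higher in the Snail-labelled library and Tspan4 2.17-fold higher, while Tspan33 was 26.0-fold lower and Cd9 4.23-fold lower. The other 16 measured members lay within 2-fold, and 13 of the 20 (65%) within 1.5-fold, against 75.5% of all genes measured on both arrays. The family therefore showed no common direction: its median log2 difference was -0.14, with 9 members above 0 and 11 below, beside a median of -0.03 over all 15466 genes measured on both arrays. Of all those genes 3.96% were higher by 2-fold or more and 6.34% lower, 10.3% in either direction, against 2 higher and 2 lower of the 20 tetraspanins. At 4-fold or more, the shares of all genes were 0.782% higher and 1.57% lower, 2.35% in either direction, against 1 higher and 2 lower tetraspanins. Of the lower genes, Cd9 lay close to 4-fold. It fell short of 4-fold with another background correction, normexp, run with an offset of 50 added to every signal (-1.70).

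**Figure D1:**
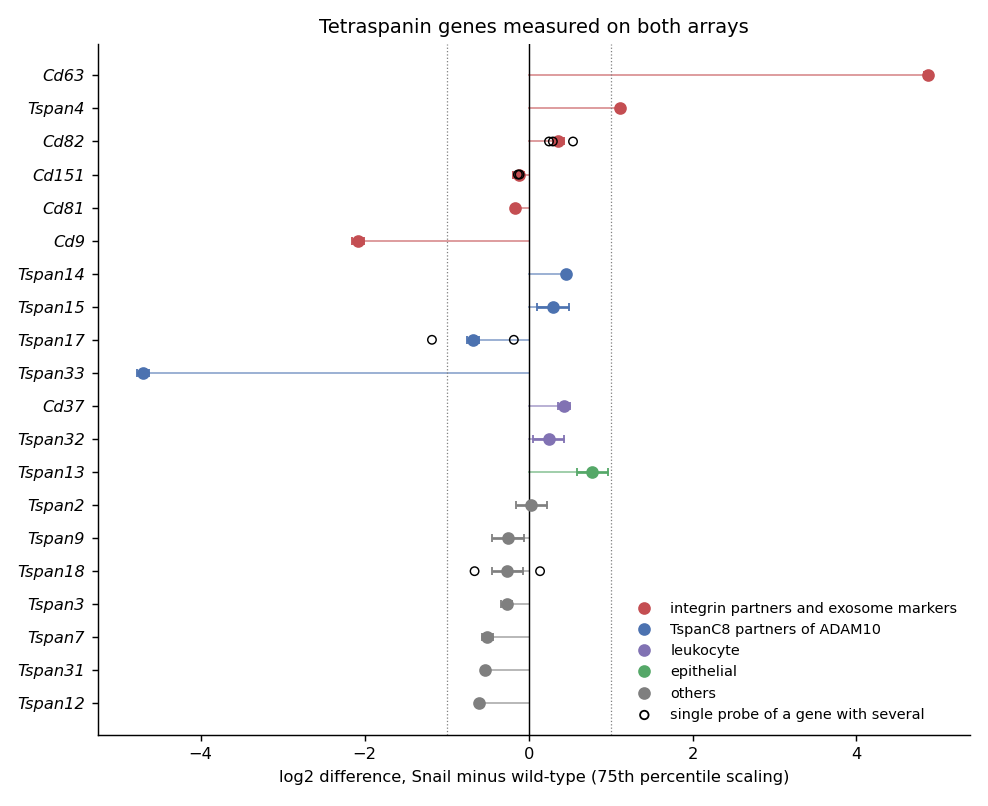
Log2 difference (Snail minus wild-type, scaled to the 75th percentile) of the 20 tetraspanin genes measured on both arrays, coloured by role. Bars are the technical SD between repeat spots for the gene's signal class. Open circles are single probes of genes with more than 1 usable probe, and dotted lines mark 2-fold. Cd63 at 4.87 and Tspan33 at -4.70 stand farthest out, and 16 of the 20 genes lie within 2-fold.

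The probes that read the 4 genes apart by 2-fold or more are shown by their first 30 of 60 bases, since each of these genes rests on 1 probe.
Cd63: gtcttttcatggagtggattctccaggttt
Tspan33: tttctacagtgtaagaatcgggaatctggc
Cd9: cctgcaatgaaaggtactatatttgccaga
Tspan4: catcttaataaagtgtgtgagcagactgtg
On the mouse build mm9, to which the array annotation refers, the Cd63 probe lies at chr10:128349813-128349872 and the Tspan33 probe at chr6:29668498-29668557. The Cd9 probe lies at chr6:125410387-125410446 on the minus strand and the Tspan4 probe at chr7:148679261-148679320. No annotation of that build was used here, so exon and UTR positions are not given. RefSeq lists a pseudogene each for Cd63 and Cd9, and whether these probes also bind pseudogene transcripts was not tested.

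Cd63, a marker of late endosomes, lysosomes and exosomes and a cell-surface receptor for the protease inhibitor TIMP1, had a signal of 376.0 in wild-type and 14250.1 in the Snail-labelled library. Its log2 difference of 4.87 ranked 11 from the top among the 15466 genes. Its wild-type signal was above the 75th percentile of that array, and neither spot was saturated or marked as an outlier. Over the 9 other ways of scaling, filtering and averaging that were tried, the value lay between 4.77 and 5.03. With 1 probe, the filters and the choice of probe could not change it.

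Its companions among the integrin partners and exosome markers had values far from that of Cd63. Cd9, which stabilizes membrane complexes and is needed on the egg for fusion with sperm, had signals of 523 and 160.3, a log2 difference of -2.08. With normexp the Cd9 value was -1.70. Cd81, an entry factor of hepatitis C virus, had signals of 11418 and 13231, a log2 difference of -0.16 whose sign turned with quantile normalization (0.08) and with the authors' value table (0.05). Cd9, Cd63 and Cd81 are the usual trio of exosome marker proteins, and in these libraries their transcripts were lower, higher and within 1.5-fold, respectively.

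Cd82, also known as KAI1 and described as a suppressor of metastasis, was read by 3 probes with log2 differences of 0.25, 0.30 and 0.54 and a mean of 0.36. Cd151, which binds laminin-binding integrins, was read by 2 probes at -0.11 and -0.13. The probes of each gene had 1 sign, and the means of both genes lay within 1.5-fold. Tspan4, known for its part in migrasomes, the vesicles left on retraction fibres of migrating cells, had signals of 1195 and 3371, a log2 difference of 1.12 that ranged from 1.12 to 1.24 over the alternatives. Its probe lies 22 kb from those of Cd151 on chromosome 7 (mm9), and these nearby genes had values of 1.12 and -0.12.

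The TspanC8 group carries additional cysteines in the large loop and escorts the metalloprotease ADAM10, which sheds Notch receptors and cadherins, out of the endoplasmic reticulum to the surface. Of its 6 members, 4 were measured on both arrays. Tspan33, also named Penumbra and first described in erythroid cells, had a signal of 786 in wild-type and 39.2 in the Snail-labelled library, a log2 difference of -4.70 and rank 18 from the bottom among the 15466 genes. The lower signal still passed the background test, whose lowest passing signal on that array was 12.9. With normexp the log2 difference of Tspan33 was -3.37. The offset of 50 added in that setting by itself shrinks ratios of dim signals. The offset and the background estimate were not tried apart.

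The other TspanC8 members differed far less. Tspan14, one of the broadly expressed members, had signals of 931 and 1666 and a log2 difference of 0.46. Tspan15, a promoter of N-cadherin shedding by ADAM10, had dim signals of 30.4 and 48.5 and a log2 difference of 0.30, which was -0.09 with normexp. A further probe, annotated as tetraspanin 15 by a transcript accession and thus outside the choice by name, gave 0.41. The TspanC8 genes with a usable value thus included 1 lower gene and 3 within 2-fold, with no shared shift.

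Tspan17 had the widest gap between usable probes of 1 gene. The brighter probe, at chr13:54898070-54898129 (mm9), had signals of 394 and 225.9 and a log2 difference of -1.18. The dimmer one, at chr13:54897519-54897578, had signals of 34.7 and 39.8 and a log2 difference of -0.18. Their mean was -0.68, which is not 2-fold, whereas the brighter probe alone passed it. Tspan5 passed the background test on the Snail-labelled array alone, at 15.9 against 7.22, and the scaled signal was too dim to give a fold. Tspan10 failed the background test on both arrays.

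**Figure D2:**
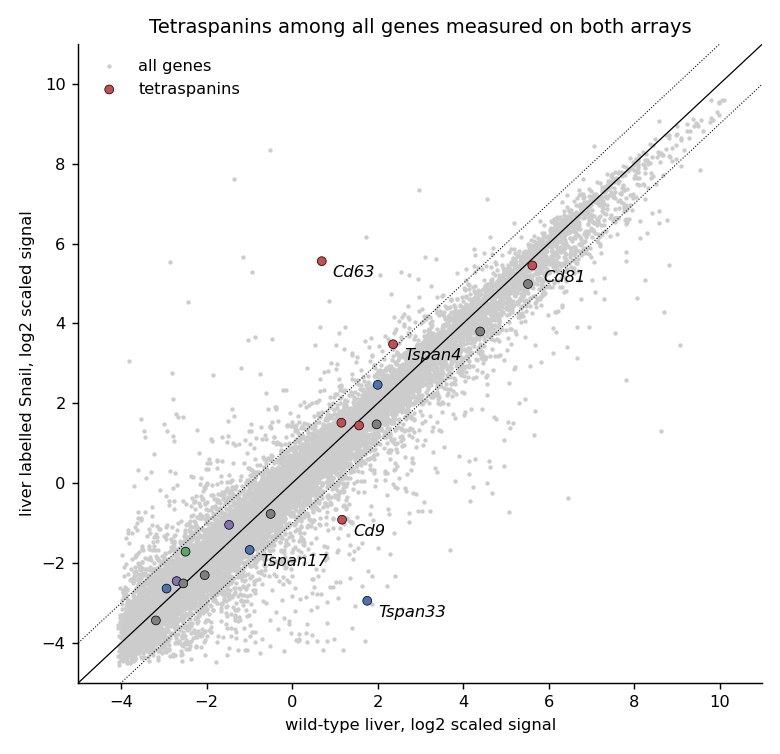
Scaled log2 signal of the 15466 genes measured on both arrays (grey), wild-type on the x axis and the Snail-labelled library on the y axis, with the 20 tetraspanins coloured by role as red for integrin partners and exosome markers, blue for TspanC8, purple for leukocyte, green for epithelial and dark grey for others. The solid line is equality and dotted lines mark 2-fold; Cd63 lies far above the cloud, Tspan33 and Cd9 below it.

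The transcripts of Adam10 and of the Notch genes showed no difference of the size seen for Tspan33. Few genes on the array had such a value, so its absence is nothing particular to these genes. ADAM10 protein, its traffic and Notch shedding were not measured. Adam10 had signals of 609 and 975, a log2 difference of 0.30. All 6 genes of the list of ADAM proteases and Notch receptors were within 1.5-fold, as were 75.5% of all genes. The list median was -0.02, with values from -0.42 to 0.35. Over the alternatives this median ranged from -0.18 to 0.09.

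Leukocyte tetraspanins were dim and slightly higher at their usable probes, with signs that turned under some settings. Cd37, which is largely confined to B cells and other leukocytes, had signals of 83.7 and 146.6 at its usable probe, a log2 difference of 0.43. Its second probe failed the background test on both arrays. Without a filter that probe takes the floor of each array, and these floors differ. The Cd37 value was then -0.02, and 0.22 with a common floor for both arrays. Tspan32, expressed in blood cells, had signals of 35.8 and 55.2 at 1 of 3 probes, a log2 difference of 0.25. It was -0.05 with normexp, -0.23 without a filter and 0.08 with the common floor. Cd53, a pan-leukocyte tetraspanin, passed the background test on the Snail-labelled array alone, at 27.1 against 14.8, a ratio of scaled signals of 1.41. These values sit beside those of leukocyte genes in general: Ptprc, Coro1a, Laptm5, Cd52 and Rac2 were 5 of 5 above 0, from 0.14 to 0.59 with a median of 0.38, and their summed scaled signal was 6.92 in wild-type and 8.34 in the Snail-labelled library. In whole liver, more leukocytes and more RNA per leukocyte cannot be told apart, and their part in the values of Cd37, Tspan32 and Cd53 was not tested.

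**Figure D3:**
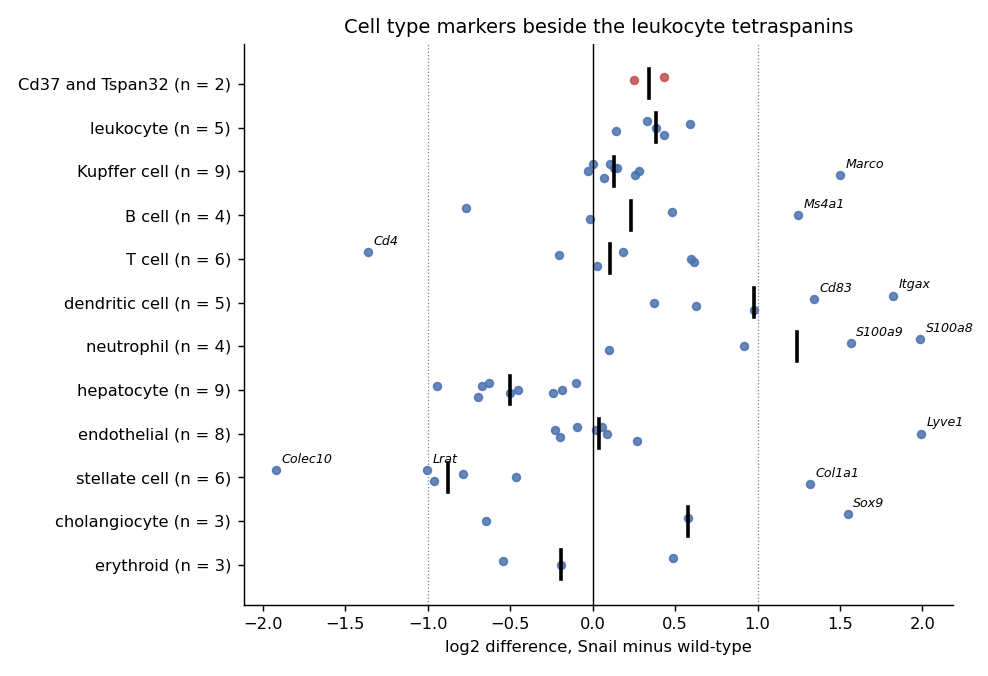
Log2 differences (Snail minus wild-type) of cell type marker genes measured on both arrays, beside Cd37 and Tspan32 in red, with the median of each set as a black bar and genes at least 2-fold apart named. The 5 leukocyte markers and both tetraspanins lie between 0.14 and 0.59, hepatocyte markers below 0, and neutrophil and dendritic cell markers have the highest medians.

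Markers of single leukocyte types varied more. Of 9 measured Kupffer cell and macrophage markers 8 were above 0, with a median of 0.13 and Marco 2.83-fold higher, and of 4 B-cell markers 2 were above 0, from -0.77 for Cd79a to 1.25 for Ms4a1. Neutrophil markers were 4 of 4 above 0 with a median of 1.24, and dendritic cell markers 5 of 5 with a median of 0.98. The erythroid markers Alas2, Slc4a1 and Hba-a1 were at 0.49, -0.54 and -0.19, beside the value of -4.70 for Tspan33. The summed scaled signal of the 3 measured erythroid markers was 41.6 in wild-type and 37.6 in the Snail-labelled library. The 9 measured hepatocyte markers were all below 0, with a median of -0.50, but their median was 0.01 in the authors' value table and -0.02 with quantile normalization. Endothelial markers had a median of 0.04, with Lyve1 3.98-fold higher. T-cell markers had a median of 0.11, which was -0.03 with normexp, and Cd4 among them was 2.57-fold lower. Under the stricter filter the T-cell median was -0.78, but Cd3e (-0.20) and Cd4 (-1.36) alone remained. Stellate cell markers had a median of -0.88, with 5 of 6 below 0, whereas Col1a1 was 2.50-fold higher and Acta2 passed the background test on the Snail-labelled array alone, at 36.1 against 14.4. Cholangiocyte markers were at the floor in part: Krt7, Krt19, Epcam and Cftr failed the background test on both arrays, as did Tspan1 and Tspan8, which epithelia of ducts and gut are known to express.

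Tspan13 was the single epithelial tetraspanin with a value on both arrays. Its signals were 41.3 and 92.0, a log2 difference of 0.78, or 1.71-fold higher, and 0.31 with normexp. Tspan1 had signals of 2.89 and 2.76 and Tspan8, a tetraspanin raised in several gastrointestinal cancers, had signals of 3.51 and 2.91, all below the level at which either array gives a measurement.

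The remaining tetraspanins formed a narrow group around or below 0. Tspan12, a coreceptor of the Norrin receptor Fzd4 in retinal vessels, had signals of 4905 and 4204 and a log2 difference of -0.60. Tspan31, a gene amplified in some human sarcomas under the name SAS, had signals of 10645 and 9585 and a log2 difference of -0.53. Tspan7, mutated in X-linked intellectual disability, had signals of 915 and 839 and a log2 difference of -0.50. All these genes had bright probes, and their values stayed below 0 under every alternative tried, from -0.60 to -0.27.

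Tspan3 was at -0.27 and Tspan9, known from platelets, at -0.25, the latter from dim signals of 25.5 and 27.9. Tspan2, a gene of oligodendrocytes and neurons, was at 0.04 and ranged from -0.19 to 0.13 over the alternatives. A second Tspan2 probe passed on the Snail-labelled array alone, at 20.9 against 8.90. Tspan18 was read by 4 probes, of which 2 were usable and pointed in different directions, at 0.14 for the brighter and -0.66 for the dimmer. The other 2 Tspan18 probes failed the background test on both arrays. Tspan6 passed on the Snail-labelled array alone, at 13.4 against 8.18, too dim for a fold, and Tspan11 on neither array.

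**Figure D4:**
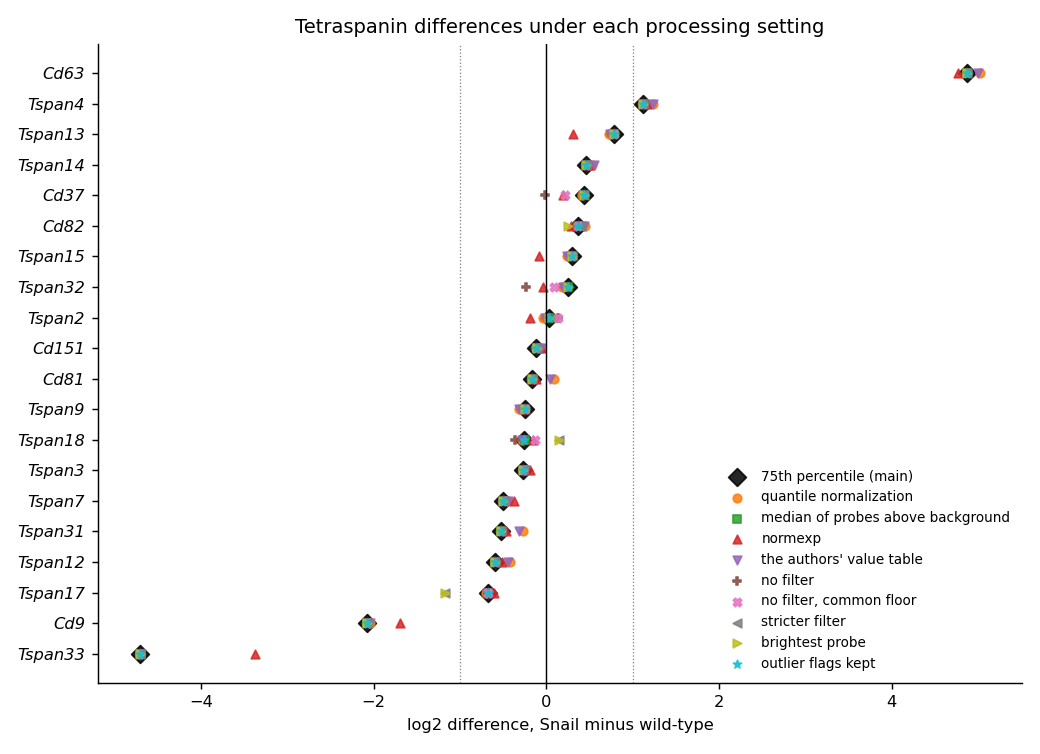
Log2 difference (Snail minus wild-type) of each measured tetraspanin under the main scaling and each alternative, genes ordered by the main value, dotted lines at 2-fold. Cd63, Tspan4, Cd9 and Tspan33 stay beyond 2-fold in every setting, and Tspan17 passes it in 2 of them. Cd63, Tspan4, Cd9 and Tspan33 rest on 1 probe each, whose value the filters and the choice of probe cannot move.

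Across the 9 alternatives, 14 of the 20 measured members kept 1 sign wherever a value could be computed. For members with 1 probe, several of these alternatives could not change the value. Values of Cd37, Cd81, Tspan15, Tspan18, Tspan2 and Tspan32 changed sign in 1 to 3 of the settings, and the one with the largest size among them was Cd37 at 0.43. Cd37 changed sign only without a filter, where a probe below background enters at array floors that differ.

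The promoters of the genes that differed by 2-fold or more are shown because Snail is a repressor that binds E-boxes of the form CAGGTG. Each sequence is the 250 bases before a RefSeq transcription start (GRCm38.p6), written in the direction of the gene, with CAGGTG or its reverse complement CACCTG in capitals.
Cd63: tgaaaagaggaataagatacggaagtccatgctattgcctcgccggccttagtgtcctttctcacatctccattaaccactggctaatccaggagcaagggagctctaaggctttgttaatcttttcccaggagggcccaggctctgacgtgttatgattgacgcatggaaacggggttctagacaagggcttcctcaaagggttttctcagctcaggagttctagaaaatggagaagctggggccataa
Tspan33: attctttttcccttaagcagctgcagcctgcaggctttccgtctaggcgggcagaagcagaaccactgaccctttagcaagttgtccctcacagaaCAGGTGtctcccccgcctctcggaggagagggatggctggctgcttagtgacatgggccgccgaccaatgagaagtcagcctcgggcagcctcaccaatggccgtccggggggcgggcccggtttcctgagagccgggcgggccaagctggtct
Cd9: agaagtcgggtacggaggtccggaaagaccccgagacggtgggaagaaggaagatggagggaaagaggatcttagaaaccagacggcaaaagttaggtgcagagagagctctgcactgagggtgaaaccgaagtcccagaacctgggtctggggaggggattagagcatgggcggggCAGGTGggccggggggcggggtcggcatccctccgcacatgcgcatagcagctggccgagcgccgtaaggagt
Tspan4: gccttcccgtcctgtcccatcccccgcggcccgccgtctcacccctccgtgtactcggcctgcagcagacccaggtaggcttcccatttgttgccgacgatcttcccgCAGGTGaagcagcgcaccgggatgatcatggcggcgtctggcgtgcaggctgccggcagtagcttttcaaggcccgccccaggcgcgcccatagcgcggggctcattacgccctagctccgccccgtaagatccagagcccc
They lie at chr10:128909095-128909344 (plus strand), chr6:29693964-29694213 (plus strand), chr6:125494761-125495010 (minus strand) and chr7:141474986-141475235 (plus strand). The hexamer begins 154 bases before the start in Tspan33, 73 before in Cd9 and 142 before in Tspan4. A second Tspan4 start has it 207 bases before, and the Cd63 window holds none. Both genes that were lower therefore held the motif, and so did Tspan4, which was higher.

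Of the 27 tetraspanin genes, 26 had a promoter in the RefSeq table, with 36 windows of 300 bases (250 before to 50 after the start). CAGGTG on either strand was found in 10 of these 36 windows (27.8%), belonging to 8 genes, against 20.2% of all 32851 windows in the table. The broader form CANNTG, which contains CAGGTG and CACGTG, was in 72.2% of tetraspanin windows and 72.3% of all. The GC box GGGCGG, on either strand, was in 44.4% and 35.7%. CACGTG, the E-box of TFEB and of clock factors, was in 5.6% and 7.2%, and TATAAA in 5.6% and 13.6%. The 7 measured members with CAGGTG in a window were Cd151, Cd37, Cd82, Cd9, Tspan15, Tspan33 and Tspan4, with a median log2 difference of 0.30, and the 12 without it had a median of -0.21. The 7 values ran from -4.70 for Tspan33 to 1.12 for Tspan4. Their median is the value of the dim gene Tspan15, whose hexamer begins 41 bases after the start. With normexp Tspan15 was at -0.09. All genes were not split by the motif, and nothing is read from these medians. The match is one of letters and shows no binding.

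Partners of tetraspanins in the membrane were described from a list of 24 genes, of which 17 were measured on both arrays. Of the 17, 0 were higher by 2-fold or more and 2 were lower by that much, and the median was -0.12 against -0.03 over all genes. The shares of all genes were 3.96% higher and 6.34% lower, and nothing particular to the list is read from a count this small. The lower genes were the integrin chains Itga7 and Itga6, which bind laminin: Itga7 had signals of 603 and 154.5, a log2 difference of -2.34, and Itga6 signals of 414 and 235.1, a log2 difference of -1.19. Another such chain, Itga3, passed the background test on the wild-type array alone, at 27.6 against 3.40, which makes it at least 2.78-fold lower. The shared chain Itgb1 was at 0.18 and Itgb4 at -0.30, and Cd151, the tetraspanin that binds these integrins, was at -0.12. Igsf8, which encodes the immunoglobulin-like partner of CD9 and CD81 called EWI-2, had a log2 difference of 0.48, and Mmp14, a membrane metalloprotease, 0.88. Timp1, the ligand of CD63, failed the background test on both arrays, with signals of 3.26 and 9.61.

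Genes of the compartments in which CD63 resides had no value near that of Cd63, which ranked 11 from the top. Few genes on the array had such a value, so its absence is nothing particular to these lists. All 15 lysosome genes were measured and 0 were 2-fold apart, with a median of -0.05, and 14 of 15 were within 1.5-fold, where all genes had 10.3% at least 2-fold apart and 75.5% within 1.5-fold. Lamp1, the most common lysosomal membrane marker, had signals of 33568 and 42035, a log2 difference of -0.05. Ctsl, a cathepsin, had the lowest value, at -0.95, and Hexa the highest, at 0.43. Of 18 measured genes of exosome and multivesicular body formation, 0 were higher by 2-fold or more and 1 was lower by that much, and the median was 0.12. In lists of this size, such counts lie near the share of all genes. The lower gene was Sytl4, a partner of Rab27 in vesicle docking, with signals of 92.1 and 45.3 and a log2 difference of -1.40. The syntenin gene Sdcbp, whose product binds CD63 and loads exosomes, was at 0.37, Pdcd6ip, which encodes ALIX, at 0.38 and Tsg101 at 0.15.

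**Figure D5:**
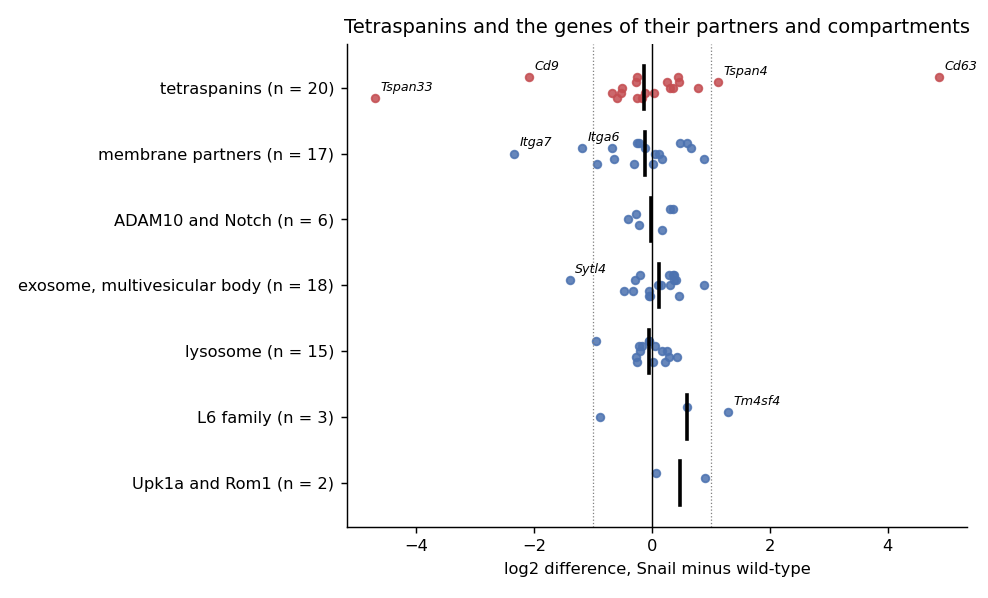
Log2 differences (Snail minus wild-type) of tetraspanins (red) and of the genes of their partners and compartments (blue) measured on both arrays, with the median of each list as a black bar and genes at least 2-fold apart named. The list medians of the tetraspanins, membrane partners, ADAM10 and Notch, exosome and lysosome genes lie between -0.14 and 0.12. No listed partner reaches the value of Cd63, which few genes on the array do.

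Related proteins outside the choice by name gave few values. Of the tetraspanin superfamily genes with other names, Rom1 of photoreceptors had signals of 273 and 658, a log2 difference of 0.89, Upk1a of urothelium was at 0.06, and Upk1b and Prph2 failed the background test on both arrays. The L6 family has a similar number of membrane spans but is no part of the tetraspanins. Its hepatocyte and duct gene Tm4sf4 had signals of 3888 and 12372, a log2 difference of 1.29, Tm4sf1 was at 0.60 and Tm4sf5 at -0.88.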

How the data were processed

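Liver RNA of 1 wild-type and 1 Alb-Cre;CAG-floxed neo-Snail sample was measured on 1-colour Agilent arrays on 1 slide read in 1 scan. The authors deposited intensity values that, in the submitters' processing notes, came from Agilent Feature Extraction 9.5.1.1. Spatial and multiplicative detrending and surrogate values for dim spots were switched on, per the file headers, so the lowest signals are estimates. The authors also deposited a value table, linear, with a median of 17.3 in both columns. Its scale and centring are unknown, its direction was checked against the scanner values (r of log2 values 1.00 for its own array), and it served as an alternative.

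Here log2 of the processed signal minus the 75th percentile of each array was used, with no floor. Control spots and 287 spots with outlier flags were removed, and 0 were saturated. Probes well above background on both arrays were averaged to give the value of a gene. For a gene seen on 1 array, the bright scaled signal was divided by the higher of the dim array's lowest signal well above background (13.8 in wild-type, 12.9 in the Snail-labelled library) and the probe's own signal. Where the own signal was higher, the quotient is the observed ratio and is written without "at least". Other genes were renamed by accession through RefSeq of GRCm38.p6, which matched 26055 of 39429 probes, and 37 of the 39 tetraspanin probes. Promoters are RefSeq's, and no positions were converted between builds. Technical spread came from 239 probes with at least 5 usable spots.

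The number of arrays, 1 per group, limits the precision. Some list genes are not reported here. No statistical test between the groups was run. Genes were counted at 2-fold or more. Every tetraspanin may be named, with list members at least 2-fold apart, the gene each list is about and the cell type markers. Other named list genes were chosen after their values were seen. The members and lists were chosen with earlier results of these data known, and so were the roles by which members are ordered. The computation was tested on simulated data. Python 3.11.15, pandas 2.3.3, R 4.3.3 and limma 3.58.1 were used.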

Additional observations from a re-analysis of the deposited data

How the results depend on the processing

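Quantile normalization, centring on the median of detected probes, normexp, the authors' value table, no filter, a stricter filter (geometric mean signal of at least 100), the brightest probe per gene, and outlier flags kept were tried, and a common floor for both arrays was added after seeing the data. Cd63 and Tspan4 were at least 2-fold higher and Cd9 and Tspan33 at least 2-fold lower in all of them. Each of these genes rests on 1 unflagged probe above background, so the filter, floor, brightest-probe and flag settings could not change its value. Centring on the median shifted all genes by the same amount. Only quantile normalization, normexp and the authors' value table could move these genes one by one. Tspan17 joined the lower genes under the stricter filter and with the brightest probe, both of which drop its dim probe. Of 175 member values, 137 moved by less than the technical spread and 38 by more. This tally does not measure stability, since many of the values could not move. No member spot was flagged, so keeping outlier flags changed no member, and median centring shifted all members by the same amount. With normexp, which here added an offset of 50 to every signal, most members moved by more than the spread. Such an offset shrinks ratios of dim signals, and normexp was not run without it. The tetraspanin median was -0.048 under quantile normalization, -0.039 in the authors' value table, -0.038 with the brightest probe, -0.27 without a filter and 0 with the common floor. Without a filter the array floors differ by -0.47, which sets the value of genes dim on both arrays and the median of all genes. With normexp 297 genes were higher and 572 lower, and under the stricter filter 378 were higher. At 1.5-fold, 3 tetraspanins were higher and 4 lower, and 1551 genes were higher and 2245 lower. At 4-fold, 1 tetraspanin was higher, and 121 genes were higher and 243 lower. No paired analysis was possible because each group has 1 array. Signal over background limits Cd53, Tspan5, Tspan6 and the 4 members below background on both arrays.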
